A study of Felis catus with 6 samples.

Results

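The 34 genes described here encode MAP kinases, the kinases and scaffolds that act on them, and protein phosphatases. They were followed in lesions of feline chronic gingivostomatitis (FCGS), a chronic inflammation of the oral mucosa, and in healthy oral mucosa. Members were all rows at hand of the study's table of genes at least 2-fold different between the tissues whose symbol starts with MAP2K, MAP3K, MAP4K, MAPK, DUSP, PTPN, PTPR, PPP1, PPP2, PPP3, PPM1, SPRED or SPRY, leaving out PTPRC and PTPN6. They are 34 of 1929 identifiers with a name and of 21529 identifiers in the files. Each row matched 1 Ensembl identifier by its values. No member began with MAP2K, PPP2, PPP3 or PPM1.

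Bulk RNA was sequenced from 3 FCGS lesions and 3 pieces of healthy mucosa beside them, 1 of each from the cats Bart, Jerome and Sadie. The study's FCGS cats had no teeth left, and the healthy mucosa came from the diseased cats themselves, so it is not the mucosa of healthy animals. At collection, the study's cats received buprenorphine and no immunosuppressive drug or antibiotic. Tissue is named gingival in the labels, while the design text places both kinds of biopsy beside the palatoglossal folds. Levels are in FPKM, which counts fragments relative to transcript length and library size, so that genes can be compared with each other. Values of the libraries are given in the order Bart, Jerome, Sadie, and log2 differences are lesion minus healthy mucosa after values below 1 FPKM were raised to 1.

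MAP kinase cascades carry signals from receptors and stress through a chain of kinases, from MAP4K and MAP3K through MAP2K to the MAP kinases ERK, JNK and p38. Dual-specificity phosphatases (DUSPs) switch MAP kinases off, and Sprouty and SPRED proteins restrain the RAS step that feeds ERK. Protein tyrosine phosphatases (PTPs), with or without a receptor domain, remove phosphate from tyrosine, and regulatory subunits direct protein phosphatase 1 to its substrates. In leukocytes these enzymes set the threshold of antigen receptor signaling, and in epithelium they take part in stress responses and differentiation.

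Of the 34 members, 20 were higher and 14 were lower in lesions. The most abundant member differed between the tissues. MAP4K1, a kinase of blood cells, had the highest mean level in lesions and rank 12 in healthy mucosa, whereas MAPK13, the p38 delta kinase of epithelial cells, had rank 4 in lesions and the highest mean level in healthy mucosa. The 20 higher members had a median log2 difference of 1.56 and the 14 lower ones of -1.51, against 1.61 and -1.46 among all 1929 named identifiers. The choice of members used this contrast, so these differences are a description and no p-value is given for any member. Just inside the 2-fold limit of the table lay MAPK8IP1 (log2 difference -1.0) on the lower side and PTPRU (1.09) on the higher side. Genes just outside it carry no name here. At the other end, the table at hand stops at a log2 difference of -2.38, and MAP3K9 (-2.35) is the member nearest to that end, so family members with larger negative differences are not described.

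Lesion and healthy values did not overlap in 12 of the 14 lower members and in 9 of the 20 higher members. Among all 13327 tested identifiers, 21.9% were lower and 16.7% were higher without overlap. Of the 7147 tested identifiers that were lower, 40.9% did not overlap, and of the 6180 higher ones 35.9%. Among the named identifiers, chosen at the same 2-fold limit, 78.0% of the 637 lower and 68.0% of the 1292 higher ones did not overlap. All 14 lower members and 17 of the 20 higher ones had 1 direction in all 3 cats (34.6% and 28.6% of tested identifiers). Of the tested identifiers, 4611 of the 7147 lower and 3808 of the 6180 higher ones did. The other 3 higher members, PPP1R1A, DUSP13 and PTPRJ, had 1 cat in which both values lay below 1 FPKM and were therefore equal at the floor. Before flooring, DUSP13 was listed lower in the lesion of that cat, Bart (0 FPKM against 0.540 FPKM in healthy mucosa). A listed value of 0 can be a failed estimate. With 0.1 FPKM added in place of the floor, 19 of the 20 higher members had 1 direction in all 3 cats. A difference of at least 2-fold in every cat was seen for 10 higher and 5 lower members (8.81% and 6.81% of tested identifiers). In limma with tissue as the only term, 5 higher and 8 lower members reached an adjusted p under 0.05 (5.31% and 6.61% of tested identifiers), and with the cat as a block 15 and 11 did (12.2% and 11.1%). Without the cat Bart, 8 higher and 5 lower members passed limma with tissue as the only term, of 2136 identifiers in all. With Jerome left out, or with Sadie left out, 0 of the 13327 identifiers passed, members or not (6 higher and 8 lower members without Jerome, and 7 and 9 without Sadie, at an unadjusted p under 0.05). The shares in brackets are of all 13327 tested identifiers, not of those of 1 direction. Since members were picked on this contrast, nothing is read from these counts. In bulk tissue, fewer cells of a type and less RNA per cell cannot be told apart.

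**Figure D1:**
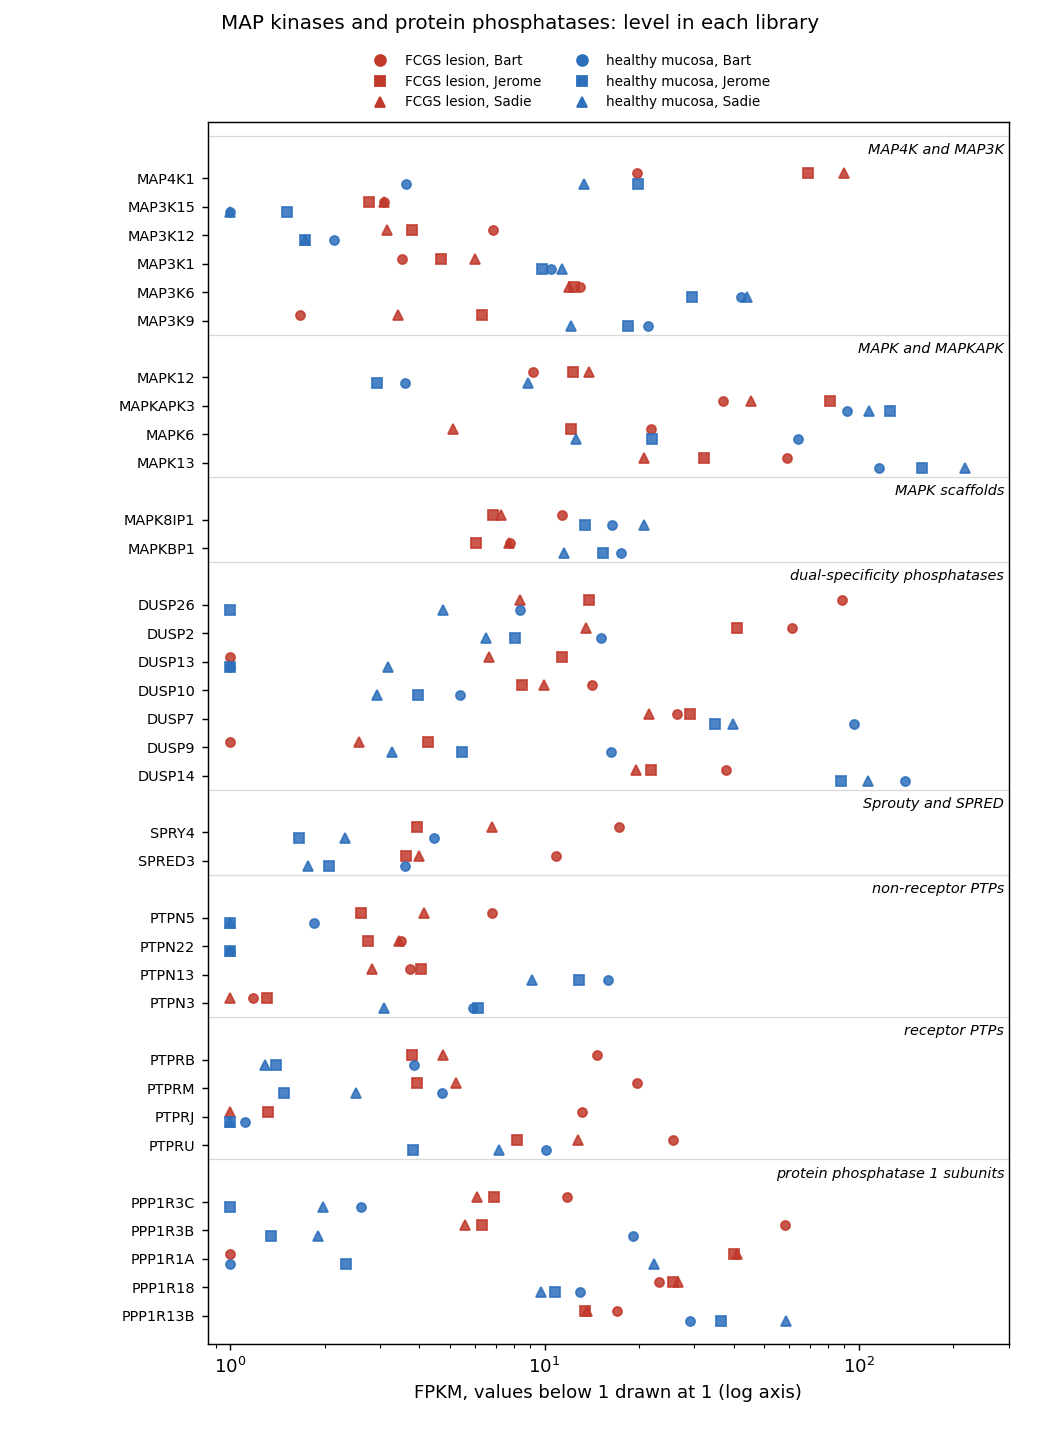
FPKM (log axis, values below 1 drawn at 1) of the 34 members in 3 FCGS lesions (red, upper points of a row) and 3 healthy biopsies (blue, lower points), grouped by role, with 1 symbol per cat. MAPK13, DUSP14 and MAP3K6 have all 3 healthy values above all 3 lesion values, and in PTPRB, PTPRM and PTPRU the healthy value of Bart lies above the lesion value of Jerome.

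Kinases at the top of the cascade went both ways. MAP4K1, the hematopoietic kinase that restrains T cell and B cell receptor signaling, measured 19.7, 68.8 and 89.8 FPKM in the lesions of Bart, Jerome and Sadie, against 3.63, 19.8 and 13.4 FPKM in their healthy mucosa. The lesion was higher in each cat, by log2 differences of 2.44, 1.80 and 2.75, but the lesion of Bart (19.7 FPKM) lay just below the healthy mucosa of Jerome (19.8 FPKM). MAP3K15, also known as ASK3, a kinase of the stress-activated ASK family, was low, at 3.08, 2.75 and 3.08 FPKM in lesions, against 0.824, 1.52 and 0.908 FPKM in healthy mucosa, without overlap. MAP3K12, the dual leucine zipper kinase known from neurons, measured 6.86, 3.78 and 3.15 FPKM in lesions, against 2.14, 1.73 and 1.74 FPKM in healthy mucosa, again without overlap.

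The other 3 MAP3Ks were lower in every lesion than in any healthy biopsy. MAP3K9, a mixed-lineage kinase that activates JNK, had the largest negative difference of all members (-2.35 ± 0.53, mean ± standard error from limma). The fit had tissue as its only term, so this error ignores the pairing and includes the spread between cats. MAP3K9 measured 1.67, 6.34 and 3.42 FPKM in lesions, against 21.3, 18.4 and 12.1 FPKM in healthy mucosa. Its lowest lesion value was in Bart, the cat with the highest healthy value. MAP3K6, or ASK2, a stress kinase related to MAP3K15, had nearly the same level in all lesions, 13.0, 12.5 and 12.0 FPKM, against 42.2, 29.5 and 44.1 FPKM in healthy mucosa. MAP3K1, which activates JNK, measured 3.52, 4.70 and 6.00 FPKM in lesions, against 10.5, 9.85 and 11.4 FPKM in healthy mucosa. MAP3K9 and MAP3K12 belong to the same mixed-lineage group and differed in opposite directions. MAP3K9 over MAP3K12 was 0.244, 1.68 and 1.09 in lesions, against 9.96, 10.6 and 6.98 in healthy mucosa (ratio of FPKM). This pair and the other pairs below were chosen after their values were seen.

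Among the MAP kinases themselves, the 2 p38 kinases among the members lay on opposite sides. MAPK13 measured 59.2, 32.2 and 20.7 FPKM in the lesions of Bart, Jerome and Sadie, against 116, 159 and 218 FPKM in their healthy mucosa. The tissues did not overlap, and the order of the cats was opposite in them, so that the differences within a cat were unequal, at -0.97, -2.30 and -3.39 (log2). MAPK12, the p38 gamma kinase abundant in skeletal muscle, measured 9.20, 12.3 and 13.9 FPKM in lesions, against 3.61, 2.94 and 8.87 FPKM in healthy mucosa. All 3 lesions were above all healthy values, but the healthy mucosa of Sadie nearly reached the lesion of Bart. MAPK13 exceeded MAPK12 in every library, by ratios of 6.43, 2.61 and 1.49 in lesions against 32.1, 54.1 and 24.5 in healthy mucosa.

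MAPK6, the atypical kinase ERK3, differed more between cats than between tissues. It measured 21.8, 12.1 and 5.13 FPKM in lesions, against 64.2, 22.0 and 12.6 FPKM in healthy mucosa, lower in the lesion of each cat, but the lesion of Bart nearly equalled the healthy mucosa of Jerome and exceeded that of Sadie. The cat accounted for 67.1% of its spread (sum of squares of log2 values over the 6 libraries) and the tissue for 31.2%. MAPKAPK3, a kinase that p38 activates, measured 37.0, 81.0 and 45.5 FPKM in lesions, against 91.5, 125 and 108 FPKM in healthy mucosa. Its lesion value in Jerome came within a log2 difference of 0.63 of that cat's healthy mucosa.

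Both JNK scaffolds among the members were lower in lesions without overlap. MAPK8IP1, or JIP1, which holds the JNK module together, measured 11.4, 6.86 and 7.26 FPKM in lesions, against 16.3, 13.4 and 20.8 FPKM in healthy mucosa. MAPKBP1, a JNK-binding protein, measured 7.75, 6.06 and 7.68 FPKM in lesions, against 17.5, 15.4 and 11.5 FPKM in healthy mucosa. The difference within a cat was smallest in Bart for MAPK8IP1 (-0.52) and in Sadie for MAPKBP1 (-0.59). No JNK gene carried a name, so its own level is not described.

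**Figure D2:**
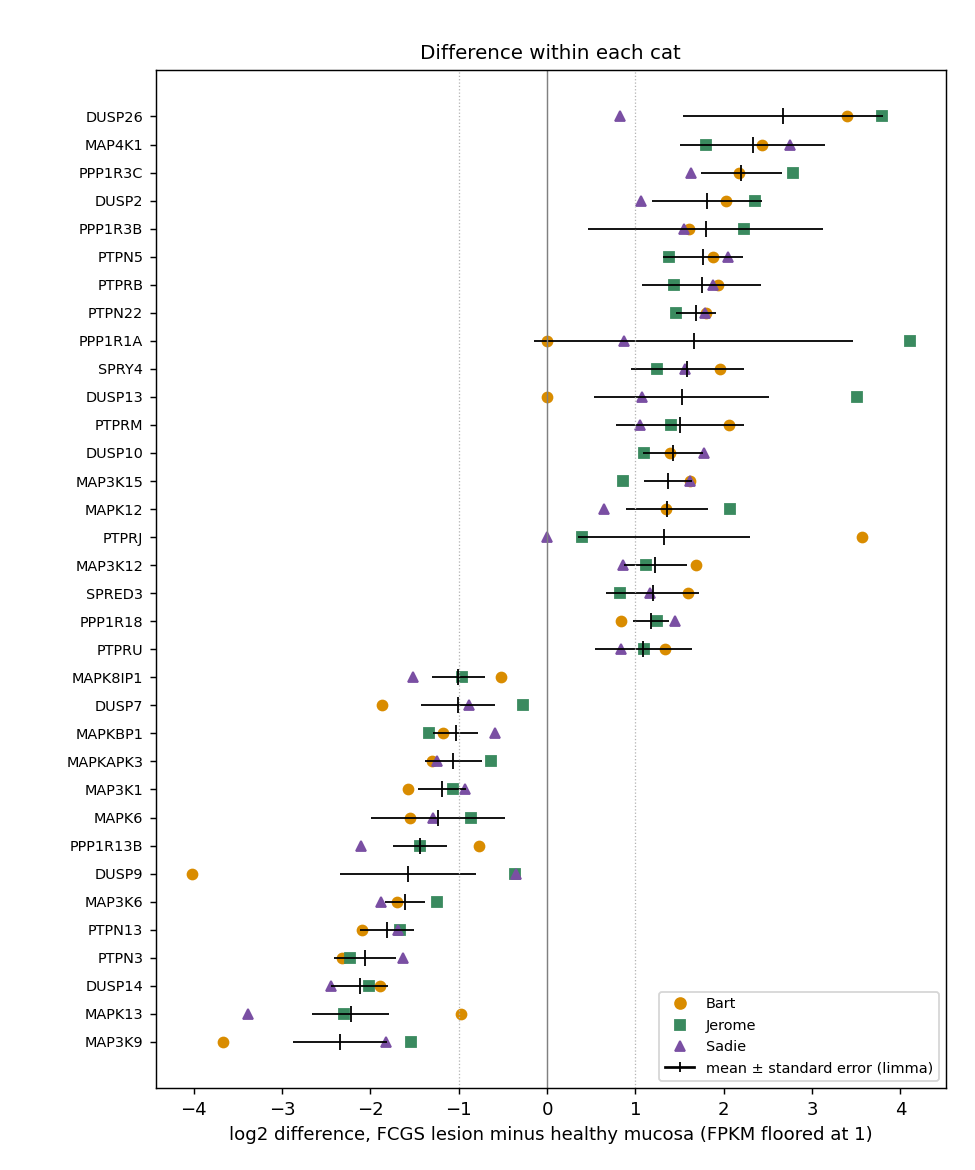
Lesion minus healthy mucosa on the log2 scale for each cat (coloured symbols, FPKM floored at 1), for the 34 members. In black are the mean and its standard error from limma with tissue as the only term. That error ignores the pairing by cat and includes the spread between cats, so it is not the spread of the coloured symbols. Dotted lines mark 2-fold. Members were chosen for a mean difference of at least 2-fold. The 14 lower members have every cat on 1 side of 0, DUSP9 is carried by Bart (-4.02), and PPP1R1A, DUSP13 and PTPRJ each have 1 cat at 0.

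Of the 7 DUSPs, 4 were higher and 3 lower in lesions. DUSP14, a small phosphatase that dampens T cell receptor signaling, was the most abundant of them in healthy mucosa and lower in every lesion, at 37.8, 21.8 and 19.5 FPKM in the lesions of Bart, Jerome and Sadie, against 141, 87.9 and 107 FPKM in their healthy mucosa. The differences within a cat were alike, -1.90, -2.01 and -2.45 (log2). DUSP7, a cytoplasmic phosphatase of ERK, measured 26.4, 29.0 and 21.5 FPKM in lesions, against 96.5, 35.0 and 39.7 FPKM in healthy mucosa. The tissues did not overlap, but in Jerome they were only 0.27 apart on the log2 scale and the healthy mucosa of Bart stood well above the others.

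DUSP9, another cytoplasmic MAP kinase phosphatase, rested on 1 cat. It measured 0.291, 4.26 and 2.57 FPKM in lesions, against 16.2, 5.48 and 3.27 FPKM in healthy mucosa, with the lowest lesion and the highest healthy value in Bart. Its differences within a cat were -4.02, -0.36 and -0.35 (log2). Without Bart, the mean difference was -0.35. No other member had a larger remainder once tissue and cat were set aside, 51.1% of the spread.

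DUSP2, a nuclear phosphatase induced in activated leukocytes, measured 61.4, 40.9 and 13.5 FPKM in lesions, against 15.1, 8.03 and 6.50 FPKM in healthy mucosa. Every cat was higher in the lesion, but the healthy mucosa of Bart was above the lesion of Sadie. DUSP10, which acts on JNK and p38, was the only DUSP higher in lesions without overlap, at 14.1, 8.50 and 9.99 FPKM in lesions, against 5.38, 3.96 and 2.92 FPKM in healthy mucosa. DUSP14 over DUSP2 was 0.616, 0.532 and 1.44 in lesions, against 9.33, 10.95 and 16.4 in healthy mucosa, so that DUSP2 was the more abundant of the pair in 2 of 3 lesions and in no healthy biopsy.

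The largest positive mean difference of all members, 2.67 ± 1.13 (standard error from limma with tissue as the only term), was that of DUSP26. DUSP26, a phosphatase of neural and neuroendocrine tissue, also had a wide spread. It measured 88.2, 13.8 and 8.37 FPKM in lesions, against 8.39, 0.805 and 4.74 FPKM in healthy mucosa. The lesion of Bart was far above the other lesions, while the lesion of Sadie (8.37 FPKM) lay just below the healthy mucosa of Bart (8.39 FPKM). DUSP13, whose locus is expressed in skeletal muscle and testis, measured 0, 11.4 and 6.66 FPKM in lesions, against 0.540, 0.123 and 3.17 FPKM in healthy mucosa. It was near or at 0 in Bart in both tissues and in the healthy mucosa of Jerome.

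The inhibitors of RAS and ERK signaling SPRY4 and SPRED3 were higher in the lesion of every cat. SPRY4, a Sprouty protein that growth factors induce, measured 17.3, 3.93 and 6.82 FPKM in lesions, against 4.46, 1.66 and 2.31 FPKM in healthy mucosa. SPRED3 measured 10.9, 3.63 and 3.98 FPKM in lesions, against 3.60, 2.06 and 1.77 FPKM in healthy mucosa. In both, the lesion of Bart was the highest library by more than 2-fold, and the lesion of Jerome was below the healthy mucosa of Bart for SPRY4 and just above it for SPRED3 (3.63 against 3.60 FPKM).

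The 4 non-receptor PTPs among the members separated the tissues without overlap, 2 in each direction. PTPN6, which the choice of members left out, measured 43.4, 51.3 and 53.6 FPKM in lesions, against 15.0, 25.5 and 21.2 FPKM in healthy mucosa. PTPN22, the lymphoid phosphatase that restrains T cell receptor signaling, was low and even, at 3.49, 2.75 and 3.45 FPKM in lesions, against 0.634, 0.662 and 0.859 FPKM in healthy mucosa. Tissue accounted for 98.3% of its spread, the highest share of any member. All healthy values were set to the floor of 1 FPKM, which removed the spread among them from this share. PTPN5, known from neurons as the phosphatase STEP, measured 6.78, 2.61 and 4.13 FPKM in lesions, against 1.84, 0.502 and 0.556 FPKM in healthy mucosa. PTPN13 and PTPN3, which both join a phosphatase to FERM and PDZ domains and sit at the membrane of epithelial cells, were both lower. PTPN13 measured 3.73, 4.05 and 2.83 FPKM in lesions, against 15.9, 12.8 and 9.13 FPKM in healthy mucosa. PTPN3 was close to or under 1 FPKM in every lesion, 1.18, 1.31 and 0.863 FPKM, against 5.90, 6.14 and 3.09 FPKM in healthy mucosa. The 2 differences, -1.82 and -2.06 on the log2 scale, varied little between cats.

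All 4 receptor PTPs among the members were higher in lesions on average, none without overlap. The receptor PTP PTPRC, left out of the members and described below, was higher in lesions without overlap. PTPRB, the endothelial phosphatase VE-PTP that acts on TIE2 and VE-cadherin, measured 14.7, 3.78 and 4.74 FPKM in lesions, against 3.84, 1.40 and 1.29 FPKM in healthy mucosa. PTPRM, an adhesive receptor PTP abundant in endothelium, measured 19.7, 3.92 and 5.24 FPKM in lesions, against 4.72, 1.48 and 2.52 FPKM in healthy mucosa. PTPRU, of the same adhesive subfamily, measured 25.6, 8.16 and 12.8 FPKM in lesions, against 10.1, 3.81 and 7.18 FPKM in healthy mucosa. These 3 shared a pattern, with Bart highest in both tissues and the lesion higher in every cat, by log2 differences of 0.83 to 2.06. PTPRJ, or CD148, a receptor PTP of leukocytes and endothelium, rested on 1 library. It measured 13.2, 1.32 and 0.970 FPKM in lesions, against 1.11, 0.888 and 0.134 FPKM in healthy mucosa, so that 5 of 6 libraries lay near or below 1 FPKM.

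Of the 5 regulatory subunits of protein phosphatase 1, 4 were higher in lesions. PPP1R18, or phostensin, is an actin-binding subunit found in leukocytes. In limma with tissue as the only term, it had the smallest standard error of any member (log2 difference 1.18 ± 0.20). It measured 23.2, 25.5 and 26.6 FPKM in lesions, against 13.0, 10.8 and 9.72 FPKM in healthy mucosa, without overlap. PPP1R13B, or ASPP1, a partner of p53, was lower without overlap, at 17.0, 13.5 and 13.6 FPKM in lesions, against 29.0, 36.4 and 58.6 FPKM in healthy mucosa. Its difference within a cat was -0.77, -1.44 and -2.10 (log2).

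PPP1R3C and PPP1R3B both bring protein phosphatase 1 to glycogen. PPP1R3C measured 11.8, 6.89 and 6.12 FPKM in lesions, against 2.61, 0.797 and 1.98 FPKM in healthy mucosa, without overlap. PPP1R3B measured 58.1, 6.32 and 5.59 FPKM in lesions, against 19.2, 1.35 and 1.91 FPKM in healthy mucosa. Every cat was higher in the lesion, by log2 differences of 1.60, 2.23 and 1.55, but the healthy mucosa of Bart was above the lesions of Jerome and Sadie. The cat accounted for 76.0% of the spread of PPP1R3B, the highest share of any member, against 13.6% for PPP1R3C. PPP1R1A, an inhibitor of protein phosphatase 1 controlled by cyclic AMP and known from muscle and brain, measured 0.962, 40.1 and 40.9 FPKM in lesions, against 0.211, 2.33 and 22.3 FPKM in healthy mucosa. Values were high in both libraries of Sadie and in the lesion of Jerome, and below 1 FPKM in Bart.

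**Figure D3:**
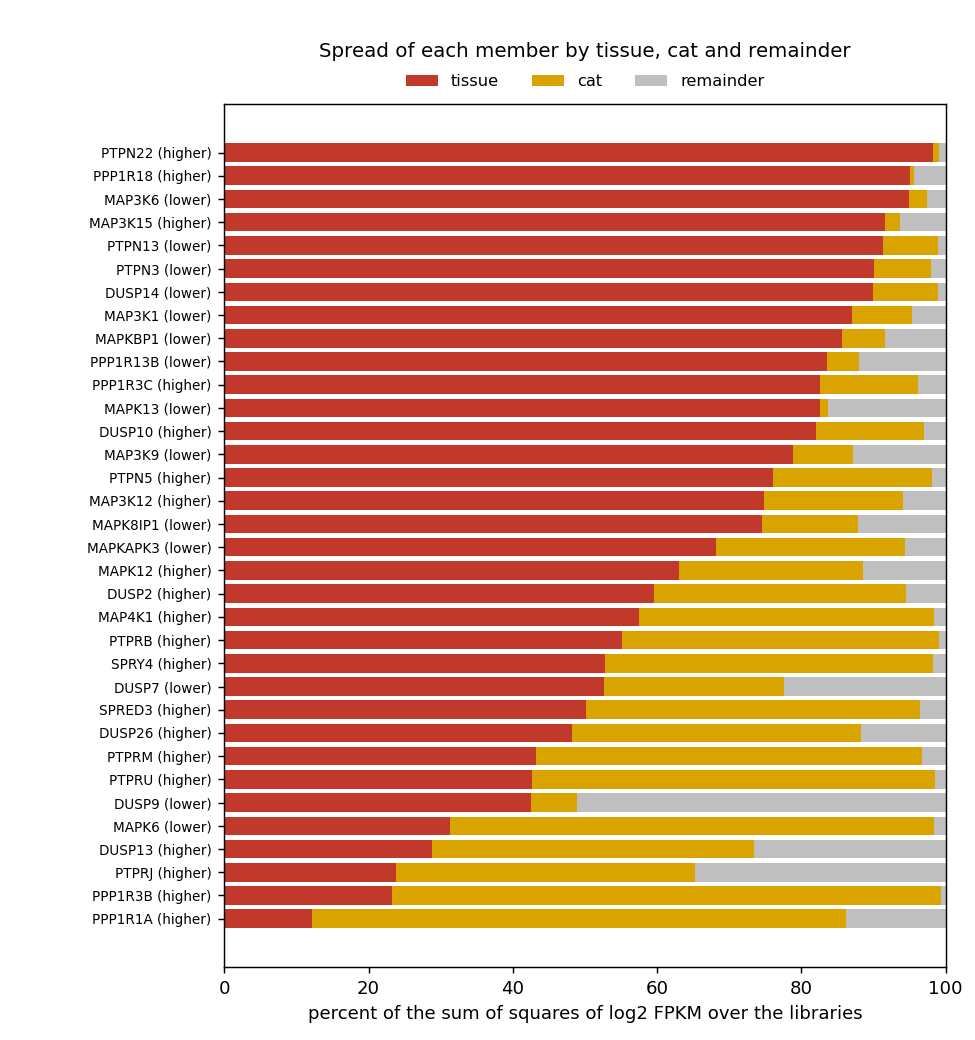
Percent of the sum of squares of log2 FPKM (floored at 1) over the 6 libraries that lay between tissues (red), between cats (yellow) and in the remainder (grey), for each member, with its direction in lesions in brackets. Tissue leads in PTPN22 (98.3%, with all healthy values set to the floor) and PPP1R18 (95.0%). The cat leads in PPP1R3B (76.0%), PPP1R1A (74.0%) and MAPK6 (67.1%).

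The share of the spread between cats had a median of 40.4% in the 20 higher members and 8.08% in the 14 lower ones, against 22.8% and 14.2% in named identifiers of the same directions. The tissue share depends on the choice of members, and the cat share falls as it grows. The cat share exceeded the tissue share in 6 higher members (PPP1R3B, PPP1R1A, DUSP13, PTPRM, PTPRJ and PTPRU) and 1 lower member (MAPK6). Bart was highest in both tissues in 13 of the 20 higher members. Of the 1292 named identifiers that were higher in lesions, 32.3% had Bart highest in both tissues, 10.9% had Jerome and 10.8% Sadie. Bart stood above the mean of the other cats by a median of 1.02 in lesions and 0.77 in healthy mucosa over the higher members (log2), against 0.35 in lesions and -0.10 in healthy mucosa over the named identifiers. This comparison of a cat with the others is a description, chosen after the values were seen.

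Most overlaps in the higher members came from Bart. The healthy mucosa of Bart lay above a lesion of another cat in 8 higher members (DUSP26, DUSP2, PPP1R3B, PTPRB, SPRY4, PTPRM, PTPRJ and PTPRU), that of Jerome in 3 and that of Sadie in 2. These counts used values before flooring. For Jerome they include DUSP13, at 0.123 FPKM against a listed 0 in the lesion of Bart, both below the floor. Without the cat Bart, lesions and healthy mucosa did not overlap in 19 of the 20 higher members (31.6% of tested identifiers were higher without overlap) and in 13 of the 14 lower ones (37.2%). Without Jerome these numbers were 14 and 13 (22.6% and 27.9%), and without Sadie 12 and 14 (22.4% and 28.2%). With 2 libraries per tissue, groups separate more easily, as the shares of all tested identifiers show. Those shares are of identifiers of both directions, whereas the counts of members are within 1 direction.

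Some members moved with markers of other cell types. Skeletal muscle genes, 20 of a list of 25 with a name, summed to 24.4, 6459 and 5715 FPKM in lesions against 11.2, 36.5 and 2725 FPKM in healthy mucosa. CKM, the creatine kinase of muscle, measured 0.937, 1234 and 1041 FPKM in lesions, against 0.528, 1.33 and 716 FPKM in healthy mucosa. PPP1R1A and DUSP13 were likewise highest in 3 libraries, the lesions of Jerome and Sadie and the healthy mucosa of Sadie. MAPK12 had its 2 highest values in the lesions of Jerome and Sadie, but in Bart, where muscle genes were low in both tissues, it was also higher in the lesion, 9.20 FPKM against 3.61 FPKM in healthy mucosa. The part of muscle in the differences of PPP1R1A, DUSP13 and MAPK12 was not tested.

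Endothelial genes, 12 of 17 with a name and all 12 higher in lesions, summed to 2235, 1003 and 948 FPKM in lesions against 508, 288 and 239 FPKM in healthy mucosa, with Bart highest in both tissues. PECAM1, an adhesion molecule of endothelium, measured 319.8, 111 and 172 FPKM in lesions, against 62.5, 36.6 and 29.7 FPKM in healthy mucosa. The 12 markers had log2 differences of 1.25 to 2.59, and PTPRB (1.75) and PTPRM (1.51) lay within that range, with 6 and 9 markers above them. The ratio of PTPRB to a marker was lower in the lesion of every cat for 4 of the 12 markers, higher in the lesion of every cat for 2 and differed in direction between cats for 6. For PTPRM these numbers were 5, 0 and 7. The fibroblast genes with a name, LUM, PDGFRB and FN1, 3 of 11, summed to 1006, 233 and 278 FPKM in lesions against 180.0, 108 and 76.7 FPKM in healthy mucosa, again with Bart highest. The part of these cells in the levels of SPRY4, SPRED3, PPP1R3B or the receptor PTPs was not tested.

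Leukocyte genes, 19 of 20 with a name and all 19 higher in lesions, summed to 1894, 2358 and 3014 FPKM in lesions against 261, 781 and 526 FPKM in healthy mucosa. MAP4K1 had its libraries in the same order within each tissue, with Sadie highest among lesions, Jerome highest among healthy biopsies and Bart lowest in both. PTPRC, the leukocyte phosphatase CD45, which the choice of members left out, measured 18.2, 16.6 and 17.8 FPKM in lesions, against 2.58, 6.52 and 4.48 FPKM in healthy mucosa. PTPN22 and PPP1R18 also varied little across lesions. Among the other leukocyte genes, some were about as even in lesions, such as CD53 (108, 105 and 99.4 FPKM). Others rose from Bart to Sadie, such as the T cell gene CD3G (56.9, 105 and 222 FPKM) and the B cell gene CD79A (151, 447 and 1114 FPKM). Of 30 epithelial markers, 3 had a name. COL17A1, the hemidesmosome collagen of basal epithelium, measured 51.4, 114 and 42.7 FPKM in lesions, against 504, 222 and 240.4 FPKM in healthy mucosa, and KRT10, a keratin of differentiating epithelium, 0.467, 2.23 and 1.56 FPKM in lesions, against 5.27, 2.39 and 2.31 FPKM in healthy mucosa. KRT4, the keratin of mature oral epithelium, measured 8.99, 2534 and 569 FPKM in lesions, against 2089, 0 and 0 FPKM in healthy mucosa, where it is listed at 0 in Jerome and Sadie, and did not follow the tissues. Of 11 nerve and glia markers, NCAM1 and CHL1 had a name, at 1.99 and -2.00 on the log2 scale. Epithelial genes with larger negative differences carry no name here, so epithelium was not measured by this list, and the part of leukocytes or epithelium in any member's difference was not tested.

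**Figure D4:**
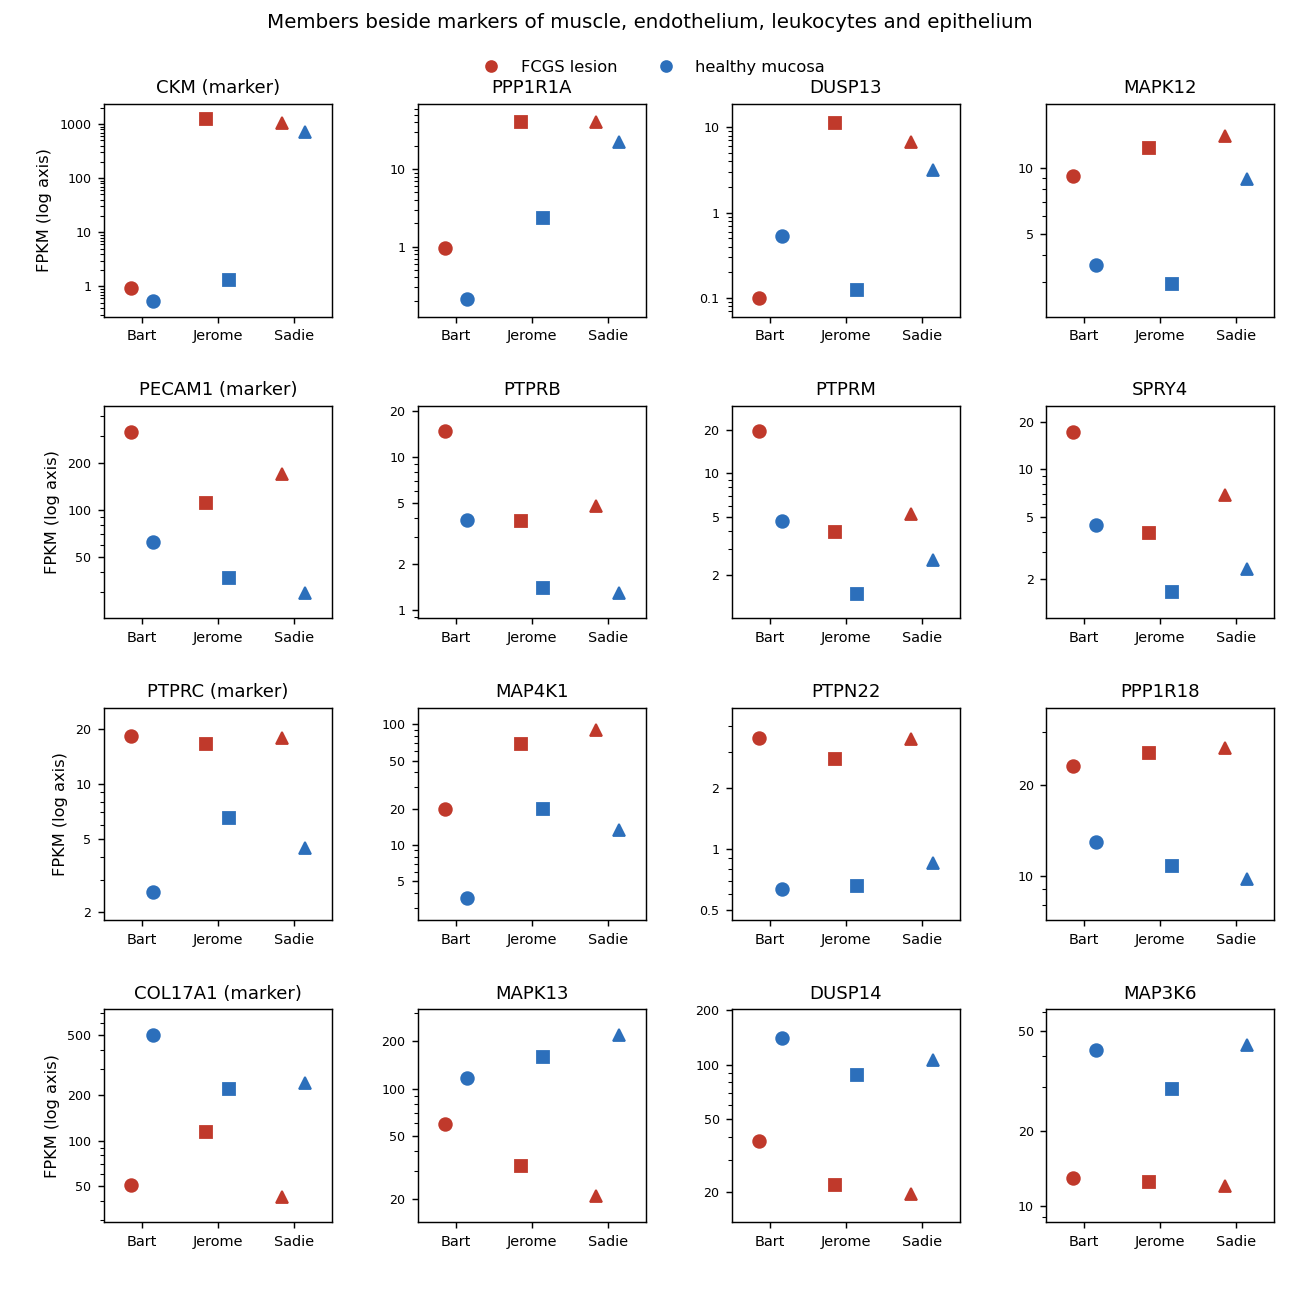
FPKM (log axis, own scale in each panel, the value of 0 for DUSP13 drawn at 0.1) in lesions (red, left of each pair) and healthy mucosa (blue) of each cat for a marker of muscle, endothelium, leukocytes and epithelium (left column) and 3 members beside each. COL17A1 is 1 of 3 epithelial markers with a name. KRT4, not shown, was lower in the lesion of Bart and higher in the lesions of Jerome and Sadie. PPP1R1A and DUSP13 are high in the 3 libraries where CKM is high, and MAPK13, DUSP14 and MAP3K6 are higher in healthy mucosa in every cat. PTPRB, PTPRM and SPRY4 are highest in Bart like PECAM1. Bart was also highest in both tissues in 13 of the 20 higher members and in the summed fibroblast genes.

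Genes around the cascade were read from lists of the pathway, all with names only where the study's table had one, so a missing gene was not measured as unchanged. These genes carry a name because they passed the same 2-fold limit, so nothing is read from their directions or limma calls. Of all tested identifiers, limma called 5.31% higher and 6.61% lower (12.2% and 11.1% with the cat as a block), and of the 1929 named ones 67.0% were higher. The 328 rows with the strongest falls are not among the named ones. Lower genes are therefore undercounted in that share and in the lists. Of 36 receptor tyrosine kinases, 14 had a name, 10 higher and 4 lower in lesions, and 2 rose and 1 fell in limma (9 and 2 with the cat as a block). The largest differences were those of ERBB2, a receptor of epithelial growth factors (-2.22), DDR1, a collagen receptor of epithelium (-2.06), and TEK, the endothelial receptor TIE2 on which PTPRB acts and also an endothelial marker above (1.99). ERBB2 measured 10.5, 22.6 and 14.7 FPKM in lesions, against 58.8, 73.1 and 82.4 FPKM in healthy mucosa, and TEK 60.5, 12.3 and 14.9 FPKM in lesions, against 15.3, 3.83 and 3.01 FPKM in healthy mucosa. Of 32 genes of the RAS and RAF module, 7 had a name, 6 higher and 1 lower, and 2 rose (5 rose and 1 fell with the block). RASGRP3 (2.07) and RASGRP4 (2.04), RAS activators of blood cells, and RASA3 (1.88), a RAS inhibitor, differed most. HRAS, the lower one, measured 24.3, 45.3 and 32.3 FPKM in lesions, against 53.7, 83.3 and 121 FPKM in healthy mucosa.

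Of 30 genes that feed JNK and p38, 9 had a name, 5 higher and 4 lower, with 0 risen and 2 fallen in limma (4 and 3 with the block). Of all tested identifiers, 5.31% rose and 6.61% fell (12.2% and 11.1% with the block). The named genes here were chosen by the 2-fold limit, so nothing is read from their calls. IL1B, an inflammatory cytokine that activates both pathways, measured 218, 48.4 and 5.16 FPKM in lesions, against 4.41, 7.67 and 0.845 FPKM in healthy mucosa. MINK1, a kinase at the level of MAP4K, had a log2 difference of -1.43. IL1A, a related cytokine, had log2 differences of 2.85, 1.07 and -0.04 within the cats, highest in Bart and near 0 in Sadie. None of the 8 kinases directly downstream of MAP kinases outside the symbol rule had a name. Of 27 transcription factors under MAP kinase control, 4 had a name. MEF2C (2.38), a p38 target of lymphocytes and muscle, and the stress factor DDIT3 (1.93) rose in limma, and ELK3 also did with the block. FOSL1, an AP-1 subunit that ERK stabilizes, measured 63.9, 26.3 and 10.8 FPKM in lesions, against 195, 33.4 and 70.2 FPKM in healthy mucosa, lower in the lesion of every cat but with overlap.

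Of 36 protein phosphatases with other symbols, 8 had a name, 4 in each direction, and 2 rose and 2 fell in limma (3 and 3 with the block). For this list and the next, the shares of all tested identifiers were again 5.31% and 6.61% (12.2% and 11.1% with the block). The 2-fold limit chose the named genes, so the calls are a description only. EPM2A, the glycogen phosphatase laforin, measured 5.01, 5.48 and 6.87 FPKM in lesions, against 1.32, 0.757 and 2.13 FPKM in healthy mucosa. PTP4A3, a small membrane-bound PTP, had a log2 difference of 1.41 and PHLPP1, a phosphatase of AKT, one of -1.64. Of 18 genes of glycogen metabolism, the process that PPP1R3B and PPP1R3C steer, 4 had a name, 2 in each direction, and 1 fell in limma (1 rose and 1 fell with the block). PYGM, the muscle glycogen phosphorylase, measured 9.93, 256 and 258 FPKM in lesions, against 2.21, 1.86 and 95.8 FPKM in healthy mucosa, highest in the 3 libraries with muscle genes. PHKG1, a phosphorylase kinase subunit of muscle, was at 2.62, and GYG2, a glycogenin, at -2.16 on the log2 scale.

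Summed over a role, levels shifted in different ways. The 4 members of the MAPK and MAPKAPK group summed to 127, 138 and 85.3 FPKM in lesions against 275, 309 and 347 FPKM in healthy mucosa, below in every cat. The 4 receptor PTPs summed to 73.1, 17.2 and 23.7 FPKM in lesions against 19.8, 7.58 and 11.1 FPKM in healthy mucosa, above in every cat. The 6 MAP4K and MAP3K members summed to 47.8, 98.8 and 117 FPKM in lesions against 80.5, 80.9 and 83.6 FPKM in healthy mucosa, lower in the lesion of Bart and higher in those of Jerome and Sadie. The 7 DUSPs summed to 228, 129.6 and 82.1 FPKM in lesions against 283, 141 and 167 FPKM in healthy mucosa. These sums cover the members only, and the strongest members lead them.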

How the data were processed

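The authors deposited FPKM for 1 library per file, made with Cuffnorm. The submitters' notes also name bcl2fastq, HISAT and Cufflinks (versions and reference assembly not given in the sources used here). These values are scaled for transcript length and library size, so no count model was used. Read numbers are not in the files. The most frequent ratio between libraries of values under 0.1 FPKM put their scaling up to 1.75 times apart. FPKM summed to 1382122 to 1903773 per library, and 4688 to 4927 identifiers per library are listed at 0, which can be a failed estimate.

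Identifiers carry no symbols. Rows of the study's supplementary table (1981 at hand, 328 with the strongest falls not used here) were matched by their sorted lesion and healthy values, floored at 1, to 5 significant digits. Every row matched 1 identifier, and 0 did once lesion and healthy values were exchanged. A name needed at least 3 values above the floor (1929 named). All 34 members passed the filter below, which their choice favours. Fold changes listed in that table were not used.

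A two-sided limma test was run on the 13327 identifiers that reached 1 FPKM in 3 or more of the 6 libraries. It used log2 of FPKM floored at 1 (limma 3.58.1, R 4.3.3, mean-variance trend, tissue as the only term, Benjamini-Hochberg adjustment). The step was tested on simulated data without differences between cats and with changes larger than those of most members. Those simulated data do not show how it performs in this paired design. The floor shrinks differences that involve values below 1 FPKM, in either direction. The labels give the same animal for both biopsies of a pair. Deviations from the tissue means correlated at 0.49 (Bart), 0.20 (Jerome) and 0.41 (Sadie) between the libraries of a cat, and at -0.44 to 0.27 between cats. A fit with the cat as a block was therefore set beside the counts. Sums of squares were split between tissue, cat and remainder in the balanced design. Python 3.11.15 was used with matplotlib 3.10.9, numpy 2.4.6 and pandas 2.3.3.

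Every member is named, with up to 3 genes of largest log2 difference from each of 7 pathway lists and genes from 6 marker lists. HRAS, ELK3, KRT10, the paralog pairs and the ratios to endothelial markers were added after their values were seen. Members and lists were chosen with earlier results of these data known. Alternatives were other offsets, no filter, other scalings, the block, and leaving out each library or cat.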

Additional observations from a re-analysis of the deposited data

How the results depend on the processing

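No member changed direction under any offset, filter, scaling or left-out library or cat. The count of members past limma (5 higher, 8 lower) moved more. With the cat as a replicate block, 15 higher members passed, and 3098 identifiers in all against 1588. Without a filter on low values, 3 higher and 1 lower members passed, of 526 identifiers (9 and 11 members at an unadjusted p under 0.05), where more identifiers were tested. Leaving out 1 library or 1 cat gave 0 to 8 higher members, 0 to 6 lower members and 0 to 2136 identifiers. Without Jerome or without Sadie, limma called 0 identifiers (2436 and 2139 at an unadjusted p under 0.05). Each of the 6 libraries, when left out, lowered the count of higher members to 0 to 3. Without the lesion of Sadie it called 1 identifier and without the healthy mucosa of Sadie 9, with 0 members in both. At an unadjusted p under 0.05 these were 9 higher and 9 lower members without the lesion, and 9 and 11 without the healthy mucosa. Members without overlap numbered 9 to 19 higher and 12 to 14 lower when a library or cat was left out, and same-direction counts were 17 to 19 and 14. With median centring, 12 higher members did not overlap and 20 had 1 direction in every cat. With quantile normalization these numbers were 10 and 17. Fits with 2 libraries of a tissue take its spread partly from the other tissue. Of 476 values of a member's log2 difference under an alternative, 473 stayed within 1 SD of the value given. This SD, of log2 values within a tissue and pooled over both, includes the spread between cats. It ran from 0.14 for PTPN22 to 2.73 for PPP1R1A, so uneven members could move far within it. PTPRJ went from 1.32 to 0.15 without the lesion of Bart, and PPP1R1A ranged from 0.44 to 3.44. The values outside 1 SD were DUSP9 (-0.35) and PPP1R18 (1.35) without the cat Bart, and PTPN22 (2.03) with 0.1 FPKM added in place of the floor.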
